A study of Homo sapiens with 21 samples.

Results

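Transcripts of the nuclear-encoded subunits of oxidative phosphorylation were followed in HMLE cells over 20 days of treatment with TGFβ. The genes were chosen by symbol, as those beginning with NDUFA, NDUFB, NDUFC, NDUFS or NDUFV and a digit, SDHA to SDHD, UQCR, CYC1, COX4 to COX8 or ATP5, with a mean normalised read count of at least 10 over all libraries. Of 23201 symbols in the table, 91 had such a name and 83 passed the mean, and 13343 genes in all passed it and were tested. The 83 were 36 subunits of complex I, 4 of complex II, 10 of complex III, 13 of complex IV and 15 of complex V, together 78 structural subunits, and 5 other loci. Of the other loci, ATP5S, ATP5SL and COX7A2L are proteins that act with the complexes, ATP5EP2 is a pseudogene, and COX4NB, an older name of EMC8, belongs to a complex of the endoplasmic reticulum. NDUFA4 and NDUFA4L2 were counted with complex IV, where the NDUFA4 protein resides.

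The respiratory chain of the inner mitochondrial membrane passes electrons from NADH (complex I) and succinate (complex II) through complex III and cytochrome c to oxygen at complex IV, and complexes I, III and IV pump protons that drive ATP synthesis by complex V. Most subunits are encoded in the nucleus and the catalytic membrane cores of complexes I, III, IV and V partly in mitochondrial DNA, so that the complexes need matched output from both genomes. Mammary epithelial cells make ATP by this route and by glycolysis. The 13 protein genes of mitochondrial DNA were not analysed here.

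HMLE is an established line of immortalised human mammary epithelial cells, and TGFβ is a cytokine that drives epithelial cells towards a mesenchymal state. RNA was sequenced from untreated cells (d0) and on days 1, 4, 7, 10, 15 and 20 of TGFβ (d1 to d20), with 3 libraries at each of the 7 timepoints, and all cultures were seeded at one starting density. The d0 libraries were the only untreated ones, so that days in culture, the day of harvest and TGFβ cannot be told apart. The libraries held between 18847917 and 22667754 recovered reads, and the study describes the 3 libraries of a timepoint as biological replicates. The labels do not name separate cultures, and p-values measure the spread between these libraries. All 9 markers of basal mammary epithelium, such as the keratin gene KRT5, were above 3 reads in every library, while 2 or 3 of 5 leukocyte markers were, with CD68 high and PTPRC at most at 1 read. Of 5 muscle markers MYH7 was at 0 in all 21 libraries, and 3 (TNNT2, CKM and MB) were above 3 reads in each d15 library, with at most 26.2 normalised reads for the list. The fibroblast gene COL1A1, which cells in transition to a mesenchymal state also express, had 449, 457 and 479 normalised reads at d0 and 29587, 27336 and 27776 on d20. The third d7 library stood apart over all genes, at a root mean square distance of 0.472 and 0.457 on the log2 scale from the other d7 libraries, against 0.214 to 0.243 for all other pairs within a timepoint. Each d7 count below is therefore also given without it where that moves the count by over 1.5 times. Since RNA was taken from whole cultures, fewer cells of a kind and less RNA per cell cannot be told apart.

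The subunit transcripts fell after TGFβ, partly came back and fell again. The 83 genes together made up 1.29 ± 0.0145% of all recovered reads at d0 (SD, n = 3), 0.975 ± 0.00841% on d1 and 0.818 ± 0.00289% on d4. The share was 0.867 ± 0.0329% on d7 and 0.950 ± 0.00626% on d10, dropped to 0.796 ± 0.00578% on d15 and stood at 0.974 ± 0.00704% on d20. The summed normalised reads of the 83 fell by a smaller part, from 237820 ± 4751 at d0 to 205553 ± 2863 on d1 and 172914 ± 1480 on d4. They were 182533 ± 4918 on d7, 204954 ± 1623 on d10, 163995 ± 602 on d15 and 206218 ± 925 on d20. No treated library overlapped with an untreated one, the highest treated share being 0.983% and the lowest untreated one 1.27%. The lowest mean of the 7 timepoints fell on d15 for 46 of the 83 genes (25.9% of all 13343 genes tested) and on d4 for 22 (10.3%), and the highest at d0 for 60 (19.3%).

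Each treated day was compared with d0 by limma on log2 of the normalised read count plus 1, with adjustment by the Benjamini-Hochberg method over all 13343 genes and an adjusted p of 0.05 as the threshold. On d1, 53 of 83 were lower and 2 higher, where 28.5% of all genes were lower and 31.3% higher, and the median log2 fold change of the 83 was -0.17. On d4, 72 were lower and 2 higher (background 35.3% and 36.9%; median -0.43), and on d7 again 72 and 2 (32.6% and 34.6%; median -0.31). On d10, 51 were lower and 6 higher (30.7% and 37.0%; median -0.18), and 3 were higher without d0 replicate 1, where 4666 of all genes were. The count reached 70 lower and 4 higher on d15 (37.3% and 39.2%; median -0.49) and was 43 lower and 5 higher on d20 (30.2% and 32.5%; median -0.13). The median log2 fold change over all genes tested was at most 0.031, on d10. The falls were small in size. A fall of at least 1.5-fold was seen for 34 genes on d15 (18.3% of all genes), 21 on d4 (13.7%), 9 on d7 (8.95%), 3 on d10 (13.7%), 2 on d1 (8.76%) and 0 on d20 (9.96%; 43 without a minimum fold), so that at that size the share of the 83 was above the background on d4 and d15, near it on d7 and below it on d1, d10 and d20. A rise of that size was seen for 1, 1, 1, 0, 2 and 1 of the 83 in order of the days, where 11.6%, 18.1%, 16.1%, 13.9%, 21.1% and 13.4% of all genes rose by as much. The d7 count at 1.5-fold, and its place near the background, rest on all d7 libraries and were not checked without the third. The 6 comparisons share the d0 libraries and are not independent of each other.

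**Figure D1:**
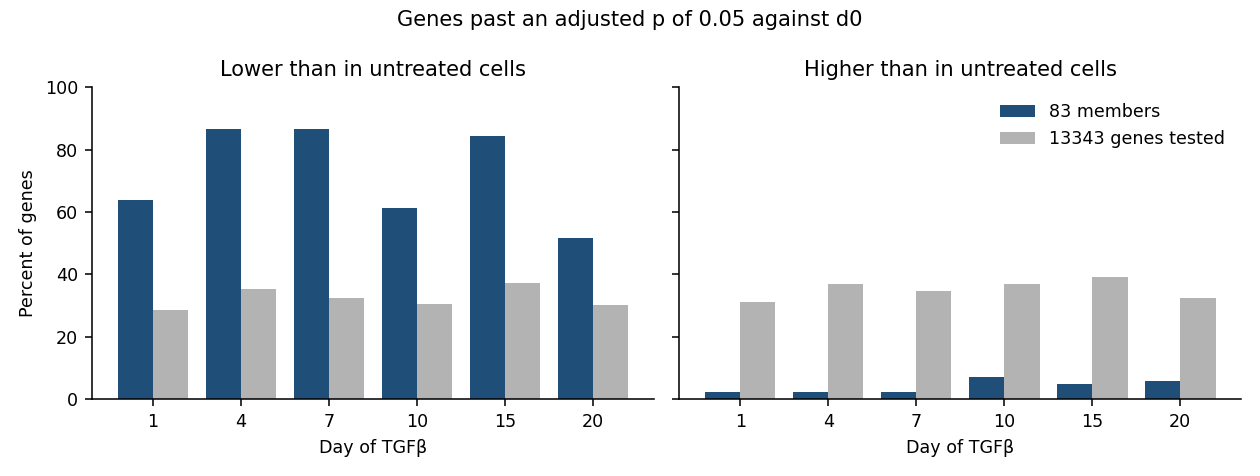
Percent of the 83 oxidative phosphorylation genes (blue) and of all 13343 genes tested (grey) with an adjusted p under 0.05 against d0 on each treated day, lower in the left panel and higher in the right. From 51.8% (d20) to 86.7% (d4 and d7) of the 83 were lower, and from 2.41% to 7.23% were higher.

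These counts depend on how libraries are scaled. The size factors of the deposited values set the median of all genes to about 0, and the d0 libraries then have smaller totals than the treated ones. With every library rescaled to the same total, the median of all genes shifted to between -0.14 and -0.20 and 75, 78, 77, 74, 76 and 72 of the 83 were lower on d1, d4, d7, d10, d15 and d20, where 50.2%, 49.5%, 49.1%, 50.5%, 47.2% and 50.8% of all genes were lower, and 2, 1, 1, 1, 3 and 1 were higher, where 18.3%, 25.8%, 22.7%, 21.5%, 30.3% and 19.9% of all genes were higher. Such a rescaling moves all genes of a library alike, so that the median of the 83 minus the median of all genes keeps its value by construction (-0.434 and -0.435 on d4, -0.508 and -0.509 on d15). Quantile normalization, which can move it, changed it from -0.173 to -0.262 on d1, -0.434 to -0.452 on d4, -0.314 to -0.301 on d7, -0.207 to -0.304 on d10, -0.508 to -0.494 on d15 and -0.125 to -0.173 on d20, with 71, 73, 76, 69, 72 and 65 of the 83 lower, where 34.8%, 40.9%, 39.8%, 35.3%, 40.2% and 37.2% of all genes were lower. The 83 lay below the median of all genes under each of these scalings, by an amount that depended on the scaling on d1, d10 and d20, and the direction of a gene that lay close to 0 was set by the scale.

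The comparison of each timepoint with the one before it, which uses d0 only once, placed further falls between d1 and d4 and between d10 and d15, and rises in the other intervals after d4. Between d1 and d4, 63 genes fell and 4 rose (background 32.0% lower and 32.9% higher), 4 of them falling and 3 rising by at least 1.5-fold (8.7% and 11.4%). Between d4 and d7, 41 rose and 9 fell (25.5% higher and 25.5% lower). Without the third d7 library 39 rose and 15 fell, where 3898 of the 13343 genes tested rose and 4013 fell. Without d4 replicate 1, d7 replicate 1 or d7 replicate 2 only 5 fell, where 2987, 3121 and 3059 of all genes fell. A fit of d4 and d7 alone gave 24 rising and 3 falling, where 14.8% of all genes rose and 16.5% fell. None of these changes reached 1.5-fold, where 6.36% of all genes rose and 5.31% fell by as much. Between d7 and d10, 46 rose and 7 fell (36.2% and 35.2%), 1 in each direction by at least 1.5-fold (12.2% and 16.5%). With quantile normalization 35 rose and 15 fell (37.8% and 33.5% of all genes), and at equal totals 40 rose and 11 fell (33.7% and 37.8%). Between d10 and d15, 63 fell and 10 rose (40.5% and 39.3%), 17 of them falling and 4 rising by at least 1.5-fold (20.8% and 21.8%). With d10 replicate 2 or 3 or d15 replicate 2 or 3 left out in turn 6 rose, where 5044, 5042, 5019 and 5042 of all genes rose. Between d15 and d20, 65 rose and 5 fell (37.7% and 36.3%), 17 of them rising and 2 falling by at least 1.5-fold (17.4% and 16.6%). With quantile normalization 54 rose and 12 fell in this interval (36.1% and 38.0% of all genes). A moderated F test over all timepoints called 79 of the 83, where 95.9% of all genes were called.

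**Figure D2:**
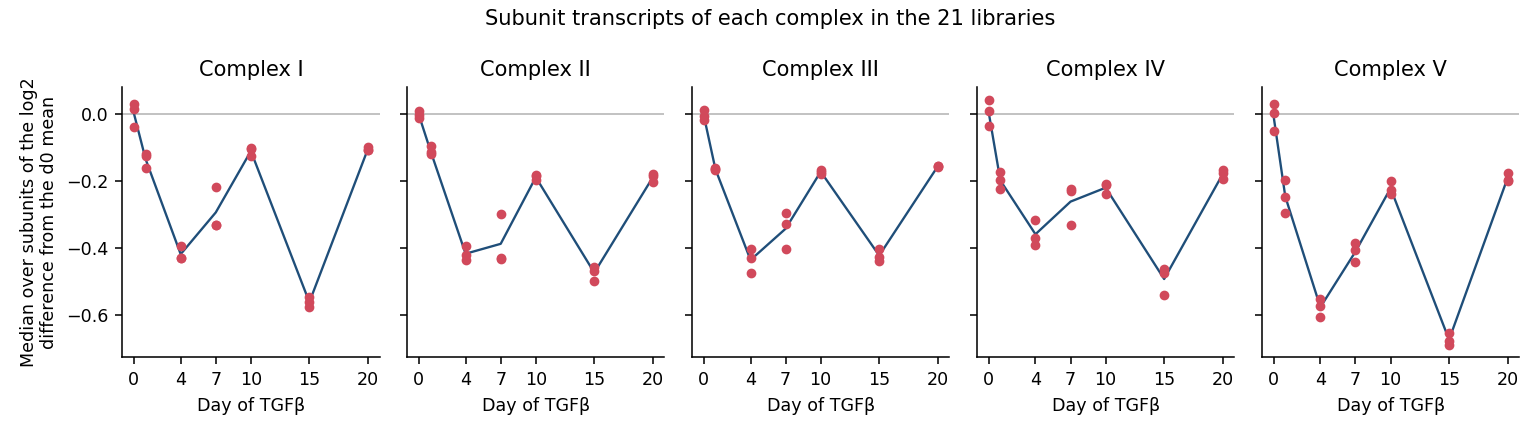
Median over the subunits of each complex of the log2 difference from the mean of the d0 libraries, against day of TGFβ, with one red point for each of the 21 libraries and a blue line through the mean of each timepoint. Each complex was lowest on d4 or d15, and complex V was the lowest, at -0.66 to -0.69 in the d15 libraries.

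Promoters of genes for these subunits are known to carry sites for NRF1, for the ETS factor GABP (also called NRF2) and for YY1. The sequences around the starts of the genes were searched for the letters of such sites. Of the 83 genes 67 had an entry among the RefSeq promoters of GRCh38.p14, each holding 250 bases before and 50 after the start, and 27305 promoters of all genes were searched in the same way on both strands. The letters CGCATGCG (NRF1) were found in 10 of the 67 (14.9%) and in 2.19% of all promoters, ACTTCCGG (ETS) in 9 (13.4%) and 4.44%, and AAGATGGCG (YY1) in 8 (11.9%) and 1.85%. No matches overlapped in these promoters, and 24 of the 67 (35.8%) held at least one of them, against 7.94% of all promoters. The 27305 promoters were not limited to genes that passed the mean of 10, as the 67 were, so that the shares come from unlike sets. A match is a run of letters and not a shown site of binding. Fold changes of genes with and without a match were not compared, and the part of these letters in the falls was not tested. The stretches below, each of 50 bases and written 5′ to 3′ along the gene, show examples of each match in capitals. Their genes were picked for the lowest d15 values among those with that match before the start, so that their falls follow from the choice. Then come ATP5G1, which had the largest fall on d15, and COX6B2, which had the largest rise, neither with a match in its window.
ATP5J promoter (chr21:25735144-25735193, minus strand): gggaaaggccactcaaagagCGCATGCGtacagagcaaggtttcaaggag
NDUFS6 promoter (chr5:1801342-1801391, plus strand): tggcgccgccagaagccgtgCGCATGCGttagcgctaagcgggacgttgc
NDUFS1 promoter (chr2:206159573-206159622, minus strand): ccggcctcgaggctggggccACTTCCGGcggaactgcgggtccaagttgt
UQCRQ promoter (chr5:132866568-132866617, plus strand): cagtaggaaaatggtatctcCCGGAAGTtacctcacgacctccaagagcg
ATP5J promoter (chr21:25735082-25735131, minus strand): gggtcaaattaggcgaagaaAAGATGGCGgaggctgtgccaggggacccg
ATP5G1 promoter (chr17:48892737-48892786, plus strand): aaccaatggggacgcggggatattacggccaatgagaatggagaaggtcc
COX6B2 promoter (chr19:55354720-55354769, minus strand): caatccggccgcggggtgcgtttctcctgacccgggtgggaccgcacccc
The capitals are the NRF1 letters in NDUFS6 and the first ATP5J stretch, the YY1 letters in the second ATP5J stretch, and the ETS letters in NDUFS1 and, on the other strand, in UQCRQ. The log2 fold changes of these genes on d15 were -0.92 (ATP5J), -0.89 (NDUFS6), -1.05 (NDUFS1), -0.58 (UQCRQ), -1.49 (ATP5G1) and 2.58 (COX6B2).

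Complex I, which oxidises NADH, has 7 core subunits encoded in the nucleus and a shell of supernumerary subunits around them. Of its 36 subunits 19 were lower and 0 higher on d1, 34 and 0 on d4, 34 and 1 on d7, 18 and 4 on d10, 31 and 1 on d15, and 15 and 1 on d20, where 28.5%, 35.3%, 32.6%, 30.7%, 37.3% and 30.2% of all genes were lower and 31.3%, 36.9%, 34.6%, 37.0%, 39.2% and 32.5% higher. At equal totals none of the higher calls on d10 and d20 was left, and with quantile normalization only that of NDUFV3 on d10. The median log2 fold change of the 7 core subunits was -0.36 on d4 and -0.51 on d15, and that of the 29 supernumerary ones was -0.42 and -0.59. NDUFA9, a supernumerary subunit at the junction of both arms of the complex, had the largest change. It stood at 3028, 3044 and 3078 normalised reads in the d0 libraries, 2042, 2164 and 2135 on d4, 3242, 3244 and 3231 on d10, 1333, 1280 and 1241 on d15 and 2841, 2854 and 2952 on d20. The d15 libraries lay far below all others, and those on d10 lay above d0 without overlap. The log2 fold change against d0 was -1.25 ± 0.0442 (SE) on d15 (limma, adjusted p = 2.56e-16) and 0.09 on d10 (adjusted p = 0.0886), and on the equal-total scale the d10 value became -0.14.

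NDUFB3 and NDUFB6, supernumerary subunits of the membrane arm, moved alike. NDUFB3 had 1098 ± 50.4 normalised reads in the d0 libraries (SD, n = 3), 487 ± 18 on d15 and 1039 ± 49.8 on d20, and NDUFB6 went from 1282 ± 52.2 to 593 ± 31.1 and 1184 ± 16. Their log2 fold changes on d15 were -1.17 and -1.11. NDUFS1, the large core subunit that carries iron-sulfur clusters, was 2587, 2487 and 2720 at d0, 1524, 1566 and 1879 on d7, 1280, 1249 and 1237 on d15 and 2051, 2072 and 2072 on d20. Its d20 libraries did not reach the d0 range, and the third d7 library lay above the others of that day. The log2 fold change was -1.05 ± 0.0539 on d15 and -0.33 on d20 (limma, adjusted p = 1.40e-13 and 1.74e-05). NDUFV1, which binds the flavin that takes electrons from NADH, changed less, from 3652 ± 154 at d0 to 2567 ± 33.0 on d15 (log2 fold change -0.51).

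Not every complex I transcript followed this course. NDUFB11, a membrane arm subunit, was the only one of the 36 called higher on d7 or on d15, with 1126 to 1270 normalised reads at d0, 1279 to 1458 on d7 and 1259 to 1392 on d15. Its ranges at d0 and d15 overlapped, and the log2 fold change was 0.20 on d7 and 0.14 on d15 (limma, adjusted p = 0.00537 and 0.0359). On the equal-total scale these values were 0.0058 and -0.020, and both calls were lost. With quantile normalization NDUFB11 was called higher on both days. On the deposited scale NDUFS7, NDUFS8, NDUFB10 and NDUFV3 had log2 fold changes from -0.09 to -0.03 on d15, none past the threshold. Equal totals moved the d15 median of all genes from 0.015 to -0.144. The oxidative phosphorylation genes called lower on d15 then rose from 70 to 76. The place of NDUFS7, NDUFS8, NDUFB10 and NDUFV3 as exceptions is therefore stated for the deposited scale only. NDUFB1, a small membrane arm subunit, had the lowest value of complex I on d1, d4 and d10, with log2 fold changes of -0.59 on d1, -0.84 on d4, -0.57 on d7, -0.68 on d10, -0.87 on d15 and -0.37 on d20.

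**Figure D3:**
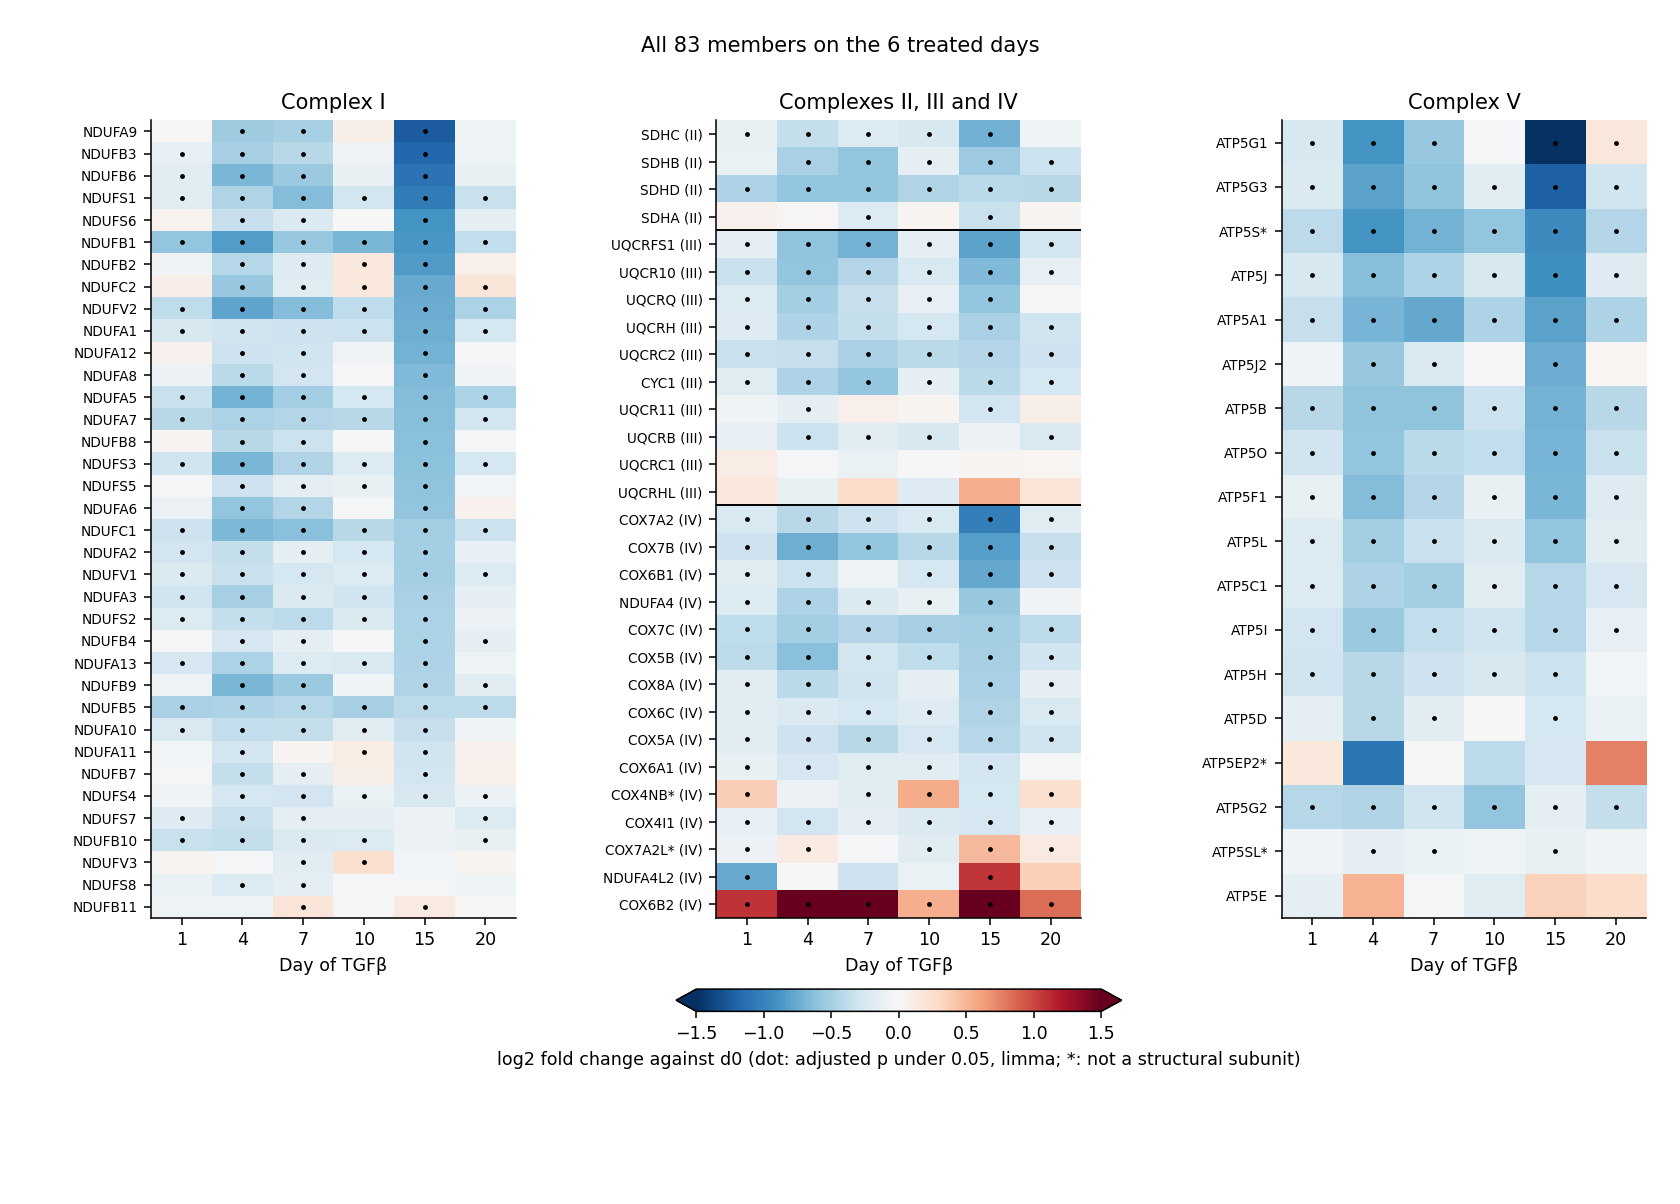
log2 fold change against d0 of all 83 genes (rows, by complex and ordered by the d15 value) on the 6 treated days (columns), with colour from -1.5 (blue) to 1.5 (red), a dot where limma's adjusted p was under 0.05 and a star by loci that are not structural subunits. Blue is deepest in the columns of d4 and d15, and COX6B2 is red on all 6 days.

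Complex II oxidises succinate and is also an enzyme of the tricarboxylic acid (TCA) cycle. SDHA, its flavoprotein, was the least changed of the 4 subunits. It stood at 2879, 2857 and 3067 at d0, 2958, 2932 and 3021 on d4, 2573, 2377 and 2712 on d7, 2351, 2298 and 2316 on d15 and 3024, 2975 and 3063 on d20. Its d4 and d20 libraries overlapped with d0, and those of d7 and d15 lay below. The log2 fold change was 0.02 on d4, -0.20 on d7, -0.34 on d15 and 0.04 on d20, and on the equal-total scale the d4 and d20 values were -0.18 and -0.16. The other 3 subunits fell by more. SDHB, the iron-sulfur subunit, had its lowest value on d7 (3034 ± 18.9 at d0, 2016 ± 203 on d7 and 2435 ± 28.0 on d20, SD, n = 3). The membrane anchors SDHC and SDHD took different courses. SDHC was lowest on d15 (2815 ± 40.0 at d0, 1710 ± 20.3 on d15 and 2697 ± 33.6 on d20). SDHD was already low on d1 and stayed there (2964 ± 28.3 at d0, 2146 ± 37.2 on d1, 1967 ± 110 on d4, 2249 ± 58.0 on d15 and 2220 ± 60.8 on d20). SDHD was called lower on each of the 6 days, with log2 fold changes from -0.59 to -0.40. The table also lists the SDHA pseudogenes SDHAP1, SDHAP2 and SDHAP3, and how the counting shared reads among them is not given in the sources used here.

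Complex III passes electrons from ubiquinol to cytochrome c. Of its 10 transcripts 8 were lower and 0 higher on d4 (35.3% and 36.9% of all genes), 7 and 0 on d15 (37.3% and 39.2%), and 6 and 0 on d20 (30.2% and 32.5%). UQCRFS1, the Rieske iron-sulfur protein, had the largest fall. It was 2436, 2419 and 2585 at d0, 1648, 1590 and 1637 on d4, 1405, 1480 and 1689 on d7, 2210, 2294 and 2287 on d10, and 1369, 1429 and 1466 on d15. Only the d1, d10 and d20 libraries came near the d0 range, and none overlapped with it. Its log2 fold change was -0.80 ± 0.0535 on d15 (SE; limma, adjusted p = 1.12e-11). CYC1, the cytochrome c1 that receives these electrons, was lowest on d7, with 3793 ± 45.1 at d0, 2539 ± 209 on d7, 2870 ± 57.6 on d15 and 3162 ± 24.4 on d20. The small subunits UQCR10 and UQCRQ were lowest on d15 (log2 fold change -0.66 and -0.58), and on d20 UQCRQ was at -0.02 (adjusted p = 0.680, limma). UQCRC1, a core protein, had log2 fold changes between -0.09 and 0.11 with no adjusted p under 0.05. This holds for the deposited scale only, since equal totals moved the median of all genes to between -0.144 (d15) and -0.2 (d20). UQCRHL, the gene closest to the mean of 10 from above with a mean of 12.1, is nearly identical to UQCRH, and its count is uncertain for that reason.

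Complex IV, cytochrome c oxidase, reduces oxygen. Of 13 subunits 12 were lower on d1, 11 on d4, 10 on d7, 10 on d10, 11 on d15 and 9 on d20 (28.5%, 35.3%, 32.6%, 30.7%, 37.3% and 30.2% of all genes), and COX6B2 was higher on all 6 days (on d10 not at equal totals), joined by NDUFA4L2 on d15. COX4I1 and COX5A, which lie against the catalytic core, fell by little: the log2 fold change of COX4I1 ran from -0.29 (d4) to -0.12 (d1) and that of COX5A from -0.43 (d15) to -0.16 (d1). COX7A2, the isoform of subunit 7A found outside muscle, fell most. It was 2701, 2776 and 2866 at d0, 2120, 2162 and 1972 on d4, 2336, 2381 and 2415 on d10, 1358, 1359 and 1384 on d15 and 2429, 2474 and 2461 on d20. No treated library reached the d0 range, and the d15 libraries stood far below the rest (log2 fold change -1.02 ± 0.0413, SE; limma, adjusted p = 2.33e-15). COX6A1 and COX8A were at most 0.29 and 0.49 lower on the log2 scale, both on d15, and NDUFA4 fell by 0.56 on d15.

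**Figure D4:**
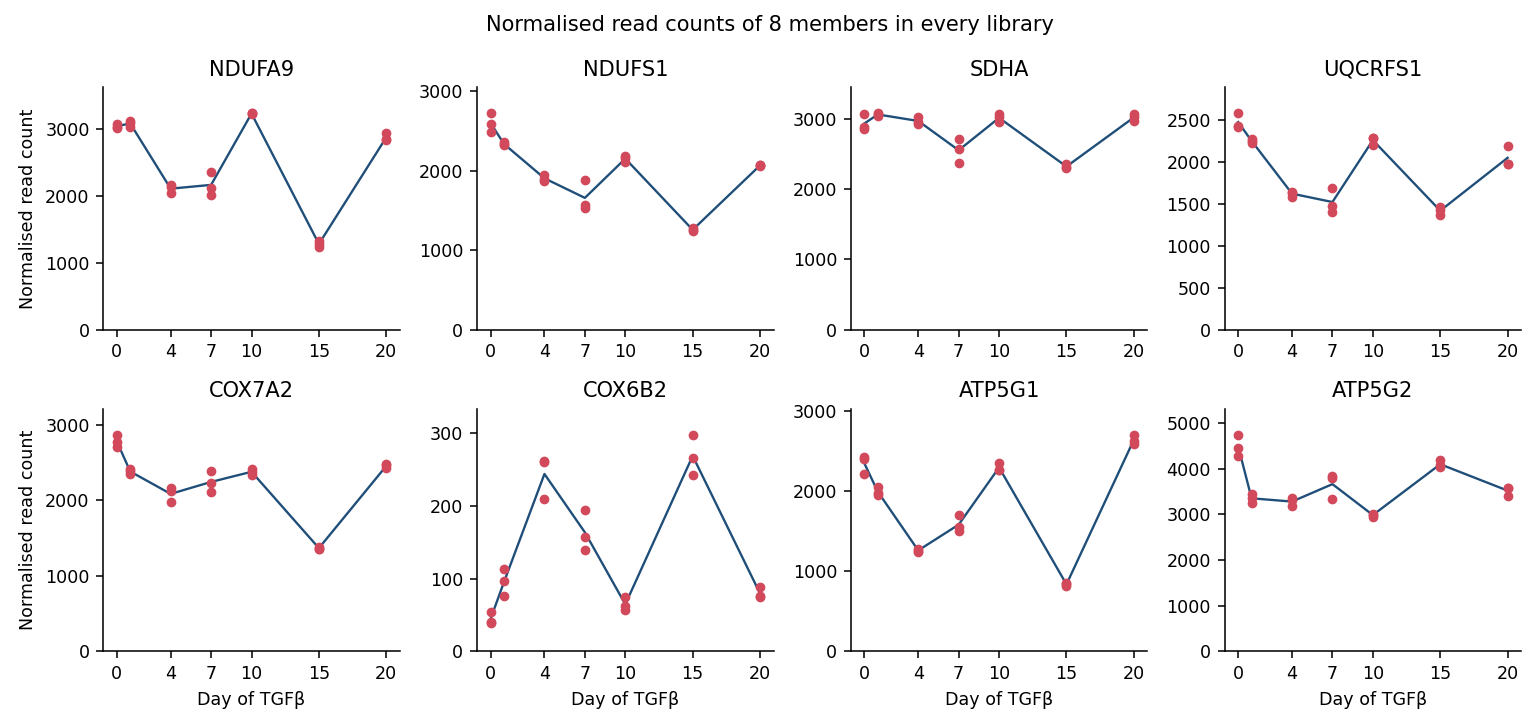
Normalised read count of 8 genes against day of TGFβ, each axis starting at 0, with one red point for each library and a blue line through the mean of each timepoint. NDUFA9, COX7A2 and ATP5G1 are lowest on d15, SDHA changes little, ATP5G2 is lowest on d10, and COX6B2 is highest on d4 and d15.

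COX6B2 was the one structural subunit called higher on each of the 6 treated days, though not on d10 at equal totals (log2 fold change 0.32, limma adjusted p = 0.087). It encodes an isoform of COX6B1, the subunit at the face where cytochrome c docks, and is known as a testis isoform. It was counted at 54.3, 39.0 and 39.6 normalised reads in the d0 libraries, 76.4, 96.4 and 113.1 on d1, 209.3, 261.0 and 260.5 on d4, 194.2, 139.7 and 156.4 on d7, 74.6, 57.3 and 61.6 on d10, 242.8, 265.0 and 297.3 on d15 and 88.0, 74.7 and 75.4 on d20. Every treated library lay above every d0 library, and d4 and d15 were the highest timepoints. The log2 fold changes were 1.09, 2.44, 1.86, 0.54, 2.58 and 0.84 in order of the days, with a SE of 0.161 (limma, adjusted p between 3.51e-12 on d15 and 0.0054 on d10). COX6B1 fell over the same days, from 3614 ± 221 at d0 to 2114 ± 78.0 on d15 (SD, n = 3; log2 fold change -0.77). The ratio of COX6B2 to COX6B1, in which length cancels when timepoints are compared, was higher than the d0 mean by 2.77 ± 0.197 on d4 and 3.36 ± 0.140 on d15 on the log2 scale (SD, n = 3), by 0.81 ± 0.197 on d10 and by 1.15 ± 0.136 on d20.

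GENCODE lists AC020922.1 as overlapping exons of COX6B2 on the same strand, and it was not analysed here. The nearest gene that was read, FAM71E2 at 94 bases, had at most 3 reads in a library. SUV420H2, a histone methyltransferase gene (KMT5C) that lies 1186 bases away on the opposite strand in GENCODE, was at 233 ± 6.47 normalised reads at d0, 229 ± 10.9 on d1, 385 ± 4.03 on d4, 317 ± 51.5 on d7, 164 ± 16.6 on d10, 436 ± 33.5 on d15 and 185 ± 24.4 on d20 (SD, n = 3). It too was highest on d4 and d15, but it lay below d0 on d10 and d20, where COX6B2 lay above. IL11, a cytokine gene 9575 bases away, rose from 24.1 ± 1.99 at d0 to 275 ± 14.3 on d15. Whether the counting used strand is not given in the sources used here, and the part of reads from overlapping or neighbouring genes in the COX6B2 values was not tested.

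The other isoforms of complex IV split into those that were present and those that were not. NDUFA4L2, a paralog of NDUFA4 known to respond to low oxygen, was low but detected, at 11.6 to 19.5 normalised reads at d0, 8.2 to 9.4 on d1, 11.6 to 13 on d7 and 30.8 to 40.4 on d15. The d1 libraries lay below and the d15 libraries above all of d0. Its log2 fold change was -0.76 ± 0.239 on d1 and 1.07 ± 0.239 on d15 (SE; limma, adjusted p = 0.00962 and 0.000363). Its exons overlap those of SHMT2 on the opposite strand, so that the limit given for COX6B2 holds here. COX4I2, COX6A2, COX7A1 and COX7B2, isoforms known from lung, muscle or testis, had means of 0.04, 0, 1.61 and 0 over the 21 libraries and were not tested. COX7A1 was the closest to the mean of 10 from below, and COX8C (1.53), ATP5L2 (0.42) and the read-through symbols NDUFC2-KCTD14 and ATP5J2-PTCD1 (both 0) completed the 8 symbols left out.

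Complex V, the ATP synthase, fell by more than the other complexes on d4 and d15 by its median. Of 15 subunits 12 were lower on d1, 14 on d4, 14 on d7, 11 on d10, 14 on d15 and 10 on d20 (28.5%, 35.3%, 32.6%, 30.7%, 37.3% and 30.2% of all genes), and only ATP5G1 was higher on any day, on d20, a call lost at equal totals. The median log2 fold change was -0.56 on d4 and -0.69 on d15. The catalytic head carries the ATP-forming sites between ATP5A1 (subunit α) and ATP5B (subunit β). ATP5A1 stood at 15472, 15723 and 16009 at d0, 9782, 9737 and 9483 on d4, 8708, 9090 and 9889 on d7, 11434, 11565 and 11176 on d10, 8986, 8970 and 9085 on d15 and 11399, 11642 and 11248 on d20. All treated libraries lay below d0, and those of d10 and d20 overlapped with each other well short of it. The log2 fold change was -0.77 on d7, -0.80 ± 0.0380 on d15 (SE; limma, adjusted p = 3.44e-14) and -0.46 on d20. ATP5B took the same path, with 24067 ± 313 (SD, n = 3) at d0, 15792 ± 227 on d4, 14781 ± 298 on d15 and 18081 ± 67.9 on d20. ATP5J, a subunit of the peripheral stalk, fell from 2517 ± 83.7 to 1332 ± 11.5 on d15.

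The rotating ring of complex V is built from copies of subunit c, which ATP5G1, ATP5G2 and ATP5G3 encode as the same mature protein with different import signals. These 3 genes did not move together. ATP5G1 had 2215, 2427 and 2394 normalised reads at d0, 1237, 1281 and 1256 on d4, 1497, 1547 and 1694 on d7, 2353, 2264 and 2261 on d10, 839, 811 and 856 on d15 and 2587, 2700 and 2626 on d20. Its d15 libraries were the lowest and its d20 libraries the highest of all, without overlap with d0. The log2 fold change was -0.90 on d4, -1.49 ± 0.0445 on d15 and 0.17 on d20 (SE; limma, adjusted p = 1.42e-17 on d15 and 0.00225 on d20), and on the equal-total scale the d20 value was -0.030. ATP5G3 was 5818, 6146 and 6428 at d0, 3546, 3484 and 3525 on d4, 2595, 2608 and 2629 on d15 and 4908, 4963 and 5074 on d20, with a log2 fold change of -1.23 on d15 and -0.30 on d20. It shared the fall on d15 but did not come back to the d0 range on d20. ATP5G2 was 4288, 4454 and 4740 at d0, 3353, 3304 and 3180 on d4, 2942, 3016 and 2994 on d10, 4070, 4041 and 4179 on d15 and 3586, 3574 and 3397 on d20. It was lowest on d10, where ATP5G1 overlapped with its d0 range, and on d15 it lay just under d0 (log2 fold change -0.13, adjusted p = 0.0151, limma).

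Compared within libraries, the ratio of ATP5G1 to ATP5G2 changed from the d0 mean by -0.44 ± 0.0511 on d4, 0.56 ± 0.0505 on d10, -1.36 ± 0.0194 on d15 and 0.52 ± 0.0507 on d20 on the log2 scale (SD, n = 3). That of ATP5G3 to ATP5G2 changed by -0.35 ± 0.0403 on d4, 0.41 ± 0.0304 on d10, -1.10 ± 0.0185 on d15 and 0.05 ± 0.0676 on d20. Both ratios hardly depend on a scaling that multiplies all genes of a library alike, while quantile normalization can change them. On d10, d15 and d20 the ratio of ATP5G1 to ATP5G2 lay outside the d0 spread of 0.0561 (SD) by many times that spread. ATP5E, the small ε subunit, had 31.5 ± 3.63 normalised reads at d0 and was not called on any day. Its pseudogene ATP5EP2 was listed at 14 ± 8.46, and how the counting divided reads between them is not given in the sources used here, so that both values are uncertain.

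Of the loci that are not subunits, COX7A2L, which joins complexes III and IV into supercomplexes, was higher on d15, and its direction on d4 and d20 depended on the scaling. It had 2096, 2100 and 2104 normalised reads at d0, 2283, 2360 and 2215 on d4, 1880, 1875 and 1863 on d10, 2962, 2939 and 2941 on d15 and 2306, 2312 and 2319 on d20. The d4, d15 and d20 libraries lay above d0 and those of d10 below it (log2 fold change 0.12 on d4, 0.49 on d15, 0.14 on d20 and -0.17 on d10). On the equal-total scale the values of d4, d15 and d20 were -0.075, 0.33 and -0.061, and with quantile normalization 0.0065, 0.44 and -0.0023. ATP5S, a coupling factor of the ATP synthase, fell from 229.6, 179.8 and 221.6 at d0 to 107.1, 98.6 and 116.0 on d15 (log2 fold change -0.96 ± 0.122; limma, adjusted p = 3.51e-07).

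Genes that serve the same complexes were counted from lists of their names. Of 53 assembly factors, which build the complexes but are not part of them, 18 were lower and 3 higher on d1, 40 and 3 on d4, 43 and 3 on d7, 17 and 20 on d10, 44 and 4 on d15, and 20 and 8 on d20, where 28.5%, 35.3%, 32.6%, 30.7%, 37.3% and 30.2% of all genes were lower and 31.3%, 36.9%, 34.6%, 37.0%, 39.2% and 32.5% higher. Their median log2 fold change was -0.37 on d4, 0.04 on d10 and -0.46 on d15. Equal totals moved the median of all genes to -0.196 on d10 and -0.2 on d20. The counts of this list on those days, and its d10 median, are therefore stated for the deposited scale only. For complex I these included ACAD9 and FOXRED1, at -1.39 and -1.36 on d15, and for complex III the chaperone of the Rieske protein LYRM7, at -1.36 on d4, and BCS1L, which inserts that protein, at -0.68 on d15. COX17, which delivers copper to complex IV, and CHCHD8 (COA4) were at -1.04 and -0.93 on d15. ATPAF1, which assembles the head of complex V, was at -0.88 on d4 and TMEM70 at -0.76 on d15. The complex II factors ACN9 (SDHAF3) and C6orf57 (SDHAF4) were at -1.24 on d15 and -0.60 on d20.

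Cytochrome c (CYCS), the mobile carrier between complexes III and IV, fell by more than most subunits. It had 6863, 6700 and 6906 normalised reads at d0, 3649, 3660 and 3469 on d4, 2855, 3183 and 3465 on d7, 7118, 6794 and 7160 on d10, 2637, 2694 and 2779 on d15 and 4712, 4893 and 4962 on d20. Its d10 libraries overlapped with d0, and all of d4, d7, d15 and d20 lay below. The log2 fold change on d15 was -1.34 ± 0.0492 (SE; limma, adjusted p = 4.71e-16). NDUFAB1, a complex I subunit whose symbol the naming rule did not take, fell from 1660 ± 23.2 (SD, n = 3) to 899 ± 27.8 on d15. Of 14 enzymes of the TCA cycle 11 were lower on d4, 12 on d15 and 11 on d20 (35.3%, 37.3% and 30.2% of all genes), with 2, 0 and 1 higher (36.9%, 39.2% and 32.5%), and the median on d15 was -0.63. DLD, a shared subunit of the 2-oxoacid dehydrogenases, was at -1.05 on d15, and IDH2 was lowest on d10, at -0.97, and at -0.84 on d20.

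Of 14 regulators and factors of mitochondrial biogenesis 8 were lower and 4 higher on d4 (35.3% and 36.9% of all genes), 1 and 9 on d10 (30.7% and 37.0%), and 10 and 2 on d15 (37.3% and 39.2%). TFAM, which packages and transcribes mitochondrial DNA, had 1221 ± 33.7 normalised reads at d0, 699 ± 17.7 on d4, 1338 ± 37.0 on d10, 575 ± 47.5 on d15 and 1096 ± 42.0 on d20. SSBP1, which binds single-stranded mitochondrial DNA, had 2401 ± 56.1, 1250 ± 64.7, 2927 ± 60.3, 1197 ± 61.6 and 2411 ± 35.8 on the same days. Rescaling to equal totals moved the d10 median of all genes from 0.031 to -0.196. The direction of small d10 rises, such as that of TFAM, therefore depended on the scaling. Of 7 carriers and pores 5 were lower on d4 and 6 on d15 (35.3% and 37.3% of all genes). SLC25A4, which exchanges ADP for ATP across the inner membrane, fell from 603 ± 5.12 to 158 ± 7.50 on d4 and stood at 258 ± 30.5 on d20, and UCP2, an uncoupling protein gene with few reads, fell from 23 ± 0.861 to 3.90 ± 0.721 on d15.

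Most glycolytic genes were lower on d4 and d15. Of 23 genes of glycolysis and pyruvate entry 20 were lower and 3 higher on d4 (35.3% and 36.9% of all genes), 7 and 8 on d10 (30.7% and 37.0%), 19 and 3 on d15 (37.3% and 39.2%), and 10 and 8 on d20 (30.2% and 32.5%), so that the counts of d10 were near the background, and the median on d15 was -0.71. PGK1, a glycolytic kinase, had 11623 ± 408 normalised reads at d0, 6907 ± 111 on d4, 13264 ± 291 on d10, 4498 ± 84.5 on d15 and 12610 ± 106 on d20. PDK1, which holds pyruvate back from mitochondrial oxidation, was at -1.47 on d15. On the equal-total scale the rise of PGK1 on d10 and d20 became -0.036 and -0.082.

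**Figure D5:**
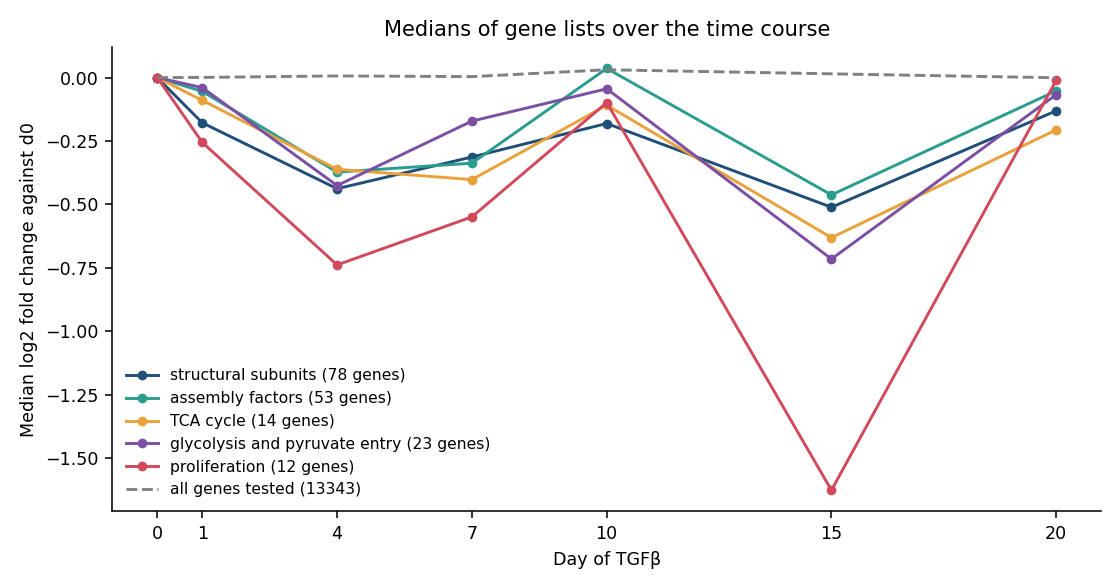
Median log2 fold change against d0 (limma fit, no error shown) of the 78 structural subunits, of 4 other gene lists and of all 13343 genes tested (dashed), against day of TGFβ, with d0 at 0. All 5 lists are low on d4 and d15 and higher on d10 and d20, and the 12 proliferation genes reach -1.63 on d15.

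Most proliferation genes were also lower on d4, d7 and d15. Of 12 such genes 7 were lower on d1, 12 on d4, 11 on d7, 2 on d10, 12 on d15 and 4 on d20 (28.5%, 35.3%, 32.6%, 30.7%, 37.3% and 30.2% of all genes), with 0, 0, 1, 1, 0 and 2 higher (31.3%, 36.9%, 34.6%, 37.0%, 39.2% and 32.5%). The share lower was below the background on d10 and near it on d20. Their summed level was 67180 normalised reads at d0, 54784 on d1, 39237 on d4, 49483 on d7, 61184 on d10, 22352 on d15 and 65781 on d20, with TOP2A the most abundant at each timepoint. MCM2 and MCM3, of the replicative helicase, were at -2.59 and -2.48 on d15. In the third d7 library, which stood apart, the median of the 12 genes was -0.16 against -0.68 and -0.70 in the other d7 libraries, and that of the structural subunits was -0.29 against -0.36 and -0.34. The part of cell division in the subunit values was not tested.

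Markers of other cell types were read beside these results. The summed level of the 6 fibroblast or stroma markers was 503 ± 9.90 normalised reads at d0 (SD, n = 3), 9708 ± 515 on d15 and 29116 ± 1229 on d20, nearly all of it COL1A1, so that it was highest on d20, when the share of subunit reads was higher than on d15 and below d0 (0.974% against 0.796% and 1.29%). The 5 leukocyte markers summed to 395 ± 4.75 at d0, 822 ± 12.1 on d4 and 774 ± 22.1 on d15, almost all from CD68, while PTPRC stayed at or near 0. The 5 endothelial markers summed to 92.1 ± 11.8 at d0 and 279 ± 10.7 on d15, led by KDR, while PECAM1 was lower on d15 than at d0 (9.06 ± 2.41 against 41.3 ± 2.06). Basal epithelial markers summed to 382890 ± 12938 at d0, 521645 ± 1405 on d4, 714024 ± 205714 on d7 (478758 in the third library), 342462 ± 4418 on d10, 663036 ± 9778 on d15 and 379617 ± 3708 on d20, with LAMA3 up by 4.23 on the log2 scale on d4 and EPCAM down by 2.84 on d7. The part of these changes in the subunit values was not tested.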

How the data were processed

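RNA from 21 HMLE libraries, 3 at each of 7 timepoints, was analysed. Per the submitters' processing notes, STAR 2.7, Salmon 1.4 and the build hg19 were used; their roles, the annotation and whether counting used strand are not given in the sources used here. The deposited signal values are gene counts that the authors divided by a size factor for each library (normalised read counts). Whole reads were recovered from 100% of values within 0.1 read, and the recovered size factors differed by at most 0.514% from those of DESeq2. The labels give replicates, but the column names carry no replicate numbers, so libraries were numbered by column within a timepoint as names only.

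Values were tested with limma 3.58.1 (R 4.3.3) on log2(value + 1), so that fold changes of low genes are understated, in a single fit of all 21 libraries with a mean per timepoint, over the 13343 genes whose mean was 10 or more, a trended variance and Benjamini-Hochberg adjustment within each comparison. No test is stated in the study's methods for these libraries. Alternatives were rescaling to equal totals, quantile normalization, a pseudocount of 10, no filter, fits of 2 timepoints, edgeR 4.0.16 and DESeq2 1.42.0 on recovered reads, a minimum of 1.5-fold, structural subunits only, NDUFA4 and NDUFA4L2 placed in complex I, and each library left out. The genes and lists were chosen with earlier results of these data known. Named genes were 12 core subunits, isoform pairs, the 3 genes per complex with the largest change, those nearest to the minimum mean, and the 2 with the largest change in each list. NDUFB1, NDUFB11 and others named as exceptions were chosen after their values were seen. On data simulated for d20 against d0 (13353 genes) limma called 57.1% of 98 genes changed by 0.5 on the log2 scale, 96% of 100 changed by 1, and 7 unchanged genes. The simulation gave every gene the same dispersion (spread beyond that of counting) and changed few genes, while in the data 8365 of 13343 were called on d20. These shares therefore check the procedure and do not carry over to the data. Tables and figures used Python 3.11.15, numpy 2.4.6, pandas 2.3.3 and matplotlib 3.10.9.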

Additional observations from a re-analysis of the deposited data

Results flagged for a closer look

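8 of the 83 genes (9.64%) were called higher than d0 on one day and lower on another, as were 28.7% of all 13343 genes tested. The difference between those days is given as a description, since the choice of genes and of each gene's highest and lowest day fixes its direction. On the log2 scale ATP5G1 was higher by 1.66 at d20 than at d15. NDUFB2 was higher by 1.01, COX4NB by 0.81 and NDUFA11 by 0.41 at d10 than at d15. NDUFC2 was higher by 0.94 at d20 than at d15, NDUFV3 by 0.40 at d10 than at d7, COX7A2L by 0.65 at d15 than at d10 and NDUFA4L2 by 1.83 at d15 than at d1. With every library rescaled to the same total, 3 of the 83 (COX4NB, COX7A2L and NDUFA4L2) had calls in both directions, against 24.2% of all genes, and 5 with quantile normalization, against 26.1%. At equal totals the rises against d0 became -0.030 for ATP5G1 and -0.013 for NDUFC2 at d20, and -0.069 for NDUFB2, -0.11 for NDUFA11 and 0.017 for NDUFV3 at d10. The cause of these differences was not tested. With 3 libraries a timepoint, no library was tested as an outlier gene by gene.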

How the results depend on the processing

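Of 358 alternative values of the 23 counts, 311 lay within 1.5 times the count given, and DESeq2 and edgeR on recovered reads moved none past that. With a minimum of 1.5-fold the higher counts against d0 were 1, 1, 1, 0, 2 and 1 and the lower 2, 21, 9, 3, 34 and 0 in order of the days. The lower count of d4 against d1 was 4, both counts of d7 against d4 were 0, those of d10 against d7 were 1 and 1, those of d15 against d10 were 4 higher and 17 lower, and those of d20 against d15 were 17 and 2. Structural subunits alone gave 1, 1 and 3 higher at d1, d4 and d20. Equal totals gave 1 higher at d4, d7, d10 and d20 (COX4NB at d10 and COX6B2 on the other days; 25.8%, 22.7%, 21.5% and 19.9% of all genes), 72 lower at d20 (50.8% of all genes) and 11 lower for d10 against d7 (37.8%). Quantile normalization gave 1, 3 and 2 higher at d4, d10 and d20 (31.7%, 30.4% and 26.8% of all genes), 65 lower at d20 (37.2%), 35 higher and 15 lower for d10 against d7 (37.8% and 33.5%) and 12 lower for d20 against d15 (38.0%). A fit of d4 and d7 alone gave 24 higher and 3 lower (14.8% and 16.5%). Leaving out one library gave 3 to 5 higher at d10 (3 without d0 replicate 1), 5 to 15 lower for d7 against d4 (15 without d7 replicate 3, and 5 without d4 replicate 1, d7 replicate 1 or d7 replicate 2) and 6 to 8 higher for d15 against d10 (6 without d10 replicate 2 or 3, or d15 replicate 2 or 3). The counts over all genes in the fits named here are given with the results above. The cause of these moves was not tested. Of 282 alternative values of the complex medians 101 moved by more than the spread between libraries and none was above 0. Equal totals and quantile normalization moved all 30 medians, by -0.227 to -0.159 and by -0.199 to -0.027, and leaving out a library moved 37 of 180. Complex V had the lowest median in 10 of 10 settings at d1, d4 and d15, but in 9 at d7, 8 at d10 and 6 at d20.

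Of 4524 alternative log2 fold changes of named genes 30 were labelled as reversed, all from a value above 0 to one below it under rescaling. The label does not take in every change of sign, for example in low genes such as UQCRHL. Genes named as exceptions, such as COX7A2L and NDUFB11, were not among these values. At equal totals SDHA was -0.13, -0.18, -0.19 and -0.16 at d1, d4, d10 and d20, NDUFA9 -0.17 and -0.14 at d1 and d10, ATP5G1 -0.030 at d20, CYCS -0.19 and NDUFAB1 -0.22 at d10, ACAD9 -0.16, -0.041 and -0.14 at d1, d10 and d20, CHCHD8 -0.047 at d10, SSBP1 -0.19 at d20, PGK1 -0.013, -0.036 and -0.082 at d1, d10 and d20, CD68 -0.20 at d10 and MCM3 -0.18 at d1. With quantile normalization SDHA was -0.082, -0.14 and -0.10 at d1, d10 and d20, NDUFA9 -0.13 and -0.10 at d1 and d10, CYCS -0.22 and NDUFAB1 -0.14 at d10, PGK1 -0.038, -0.031 and -0.10 at d1, d10 and d20 and MCM3 -0.15 at d1.

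No paired analysis was possible because of the column names, which show timepoints only. Low genes such as UQCRHL, ATP5E, ATP5EP2 and NDUFA4L2 have few reads, which limits the differences detectable at this depth. Reads shared with pseudogenes or overlapping genes could not be separated, with exons of 20 of the 83 genes overlapping another gene on the same strand and of 26 on the opposite strand in GENCODE.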
